A study of Mus musculus with 8 samples.

Results

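Rsad2 and Cmpk2, 2 of the 32285 genes counted in each library, were followed as a pair because they are neighbors on mouse chromosome 12. They were read in every library, hashtag label and cell cluster of the series. The series profiled myeloid cells of mice carrying subcutaneous MC38 tumors, a mouse colon carcinoma line. Zombie Red-, CD45+CD11b+Ly6Chi cells were sorted from the tumor or the blood, either without irradiation (control) or 3 days after 1 dose of 20 Gy of ionizing radiation (IR) to the tumor, which gave 4 droplet libraries (blood control, blood IR, tumor control and tumor IR). Each library mixed cells of Ythdf2 flox/flox mice (WT, hashtag B0301) with cells of Lyz-Cre Ythdf2 flox/flox mice (cKO, hashtag B0302, in which Cre is driven from the Lyz2 locus of myeloid cells). Male and female mice of 8 to 10 weeks were used, all of them tumor-bearing and all with floxed Ythdf2, which encodes a reader of the m6A mark on RNA. Each pool joined 5 mice of 1 genotype, tissue and treatment. The 8 groups were therefore single pools without replicates. Every interval given is a 95% interval that covers counting error only.

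Rsad2 encodes viperin, a radical S-adenosylmethionine enzyme that converts CTP to the chain-terminating nucleotide ddhCTP, and it is among the most strongly interferon-induced antiviral genes. Cmpk2 encodes the mitochondrial UMP/CMP kinase, which acts in the supply of CTP and of deoxynucleotides and is itself induced by interferon. The pair is conserved side by side in vertebrates, and in macrophages both are induced by interferon and by Toll-like receptor ligands.

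Rsad2 (ENSMUSG00000020641) spans chr12:26442746-26456452 and is read from the reverse strand, and Cmpk2 (ENSMUSG00000020638) spans chr12:26469204-26479837 and is read from the forward strand (mm10, GENCODE vM21). Both are protein-coding. They are arranged head to head, with 12751 bases between the gene bodies. The sequence just before each transcription start is shown because the starts face each other across this gap (RefSeq, GRCm38.p6, 5′ to 3′ on the strand of the gene). Capitals mark matches, on either strand, of the letters of an interferon-stimulated response element, GAAA, any 2 bases and GAAA again, or of its shorter form AANNGAAA.
Rsad2, chr12:26456453-26456702, reverse strand: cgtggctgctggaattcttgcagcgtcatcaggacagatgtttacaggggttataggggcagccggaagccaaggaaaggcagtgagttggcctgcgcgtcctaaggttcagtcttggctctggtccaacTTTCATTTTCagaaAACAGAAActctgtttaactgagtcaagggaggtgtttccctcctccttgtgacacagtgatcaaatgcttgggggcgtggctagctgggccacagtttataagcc
Cmpk2, chr12:26468965-26469116, forward strand: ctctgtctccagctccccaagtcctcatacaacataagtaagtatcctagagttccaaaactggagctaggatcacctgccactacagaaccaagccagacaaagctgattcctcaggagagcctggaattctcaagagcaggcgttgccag
The Rsad2 stretch held the longer form once, on the other strand, where the printed letters read TTTCATTTTC, at bases -120 to -111 before the start. That match contains a match of AANNGAAA, and a further one, AACAGAAA, lay at -106 to -99. Of 32851 RefSeq mouse promoters of 300 bases, 3.44% held the longer form and 23.9% the shorter one on either strand. The Cmpk2 stretch, 152 bases up to the first annotated start, held neither. TTCNNNGAA, the core of a gamma-interferon activation site and present in 8.30% of promoters, and an NF-kB site (GGGA, any base and TTTCC), present in 0.411%, were found in neither stretch. A match is a description of the letters, and binding was not measured.

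After filtering, 27435 cells remained. Tumor control gave 2519 WT and 2147 cKO cells, tumor IR 3126 and 3761, blood control 4622 and 3771, and blood IR 4109 and 3380. Their median depth was 6007.5 to 8556 unique molecular identifiers (UMIs) in the tumor groups and 2867 to 3233 in the blood groups. The 3′ tags of the targeted gene went against its label: Ythdf2 was at 32.9 to 55.6 CPM (the UMIs of a gene scaled to all gene UMIs of the group) in the 4 groups labelled WT and at 302.9 to 371.1 CPM in the 4 labelled cKO. Lyz2, which carries the Cre, was at 5591 to 14132 CPM in the former and at 82.8 to 138.5 CPM in the latter. In what follows, WT and cKO are the names of the hashtags. The libraries count tags at the 3′ end, so these counts show neither presence nor loss of YTHDF2 protein.

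The tumor matrices held each other's cells. Of 7121 called barcodes in the tumor control matrix with fewer than 20 hashtag UMIs, 7119 carried at least 20 hashtag UMIs in tumor IR, and of 4799 such barcodes in the tumor IR matrix, 4796 carried them in tumor control. In each blood matrix there were 5 such barcodes. Each cell was therefore assigned to the library that held its hashtags. Among kept cells, 148 of 4666 in tumor control and 199 of 6887 in tumor IR carried hashtags in another library as well, against 61 of 8393 (blood control) and 51 of 7489 (blood IR). Free RNA contained both transcripts. In barcodes of 1 to 99 UMIs, Rsad2 was at 575.2 CPM in tumor IR, 362.1 in tumor control, 89.9 in blood IR and 64.9 in blood control. In the same order Cmpk2 was at 79.4, 44.6, 44.4 and 30.7 CPM. Since the tumor matrices held each other's cells, these barcodes may mix free RNA of both tumor libraries. The kept tumor control cells lay below them, with Rsad2 at 149.0 (WT) and 57.2 CPM (cKO) and Cmpk2 at 18.2 and 8.96 CPM. The part of free RNA in these cells was not tested.

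Rsad2 was highest in irradiated tumors. In the WT-labelled cells it was at 80.7 CPM (interval 76.9 to 84.5) in blood control, at 120.1 (115.6 to 124.7) in blood IR, at 149.0 (143.7 to 154.4) in tumor control and at 1036.0 (1022.1 to 1050.1) in tumor IR. For the cKO label it was at 56.6 (53.2 to 60.0), 94.5 (90.1 to 98.9), 57.2 (54.2 to 60.3) and 980.5 CPM (968.2 to 992.9) in the same order. Both tumor IR groups lay above the other 6 groups without overlap. Only the lowest pair, cKO-labelled cells of tumor control and of blood control, had overlapping intervals among neighbors in this order.

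Cmpk2 followed another order, because control tumors lay below blood. In the WT-labelled cells it was at 33.0 CPM (30.6 to 35.6) in blood control, at 45.2 (42.5 to 48.1) in blood IR, at 18.2 (16.4 to 20.2) in tumor control and at 120.5 (115.8 to 125.3) in tumor IR. Cells with the cKO label were at 34.2 (31.7 to 36.9), 41.2 (38.3 to 44.2), 8.96 (7.80 to 10.2) and 142.0 CPM (137.4 to 146.8). The intervals of the labels overlapped within each blood library, and were apart in both tumor libraries.

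**Figure D1:**
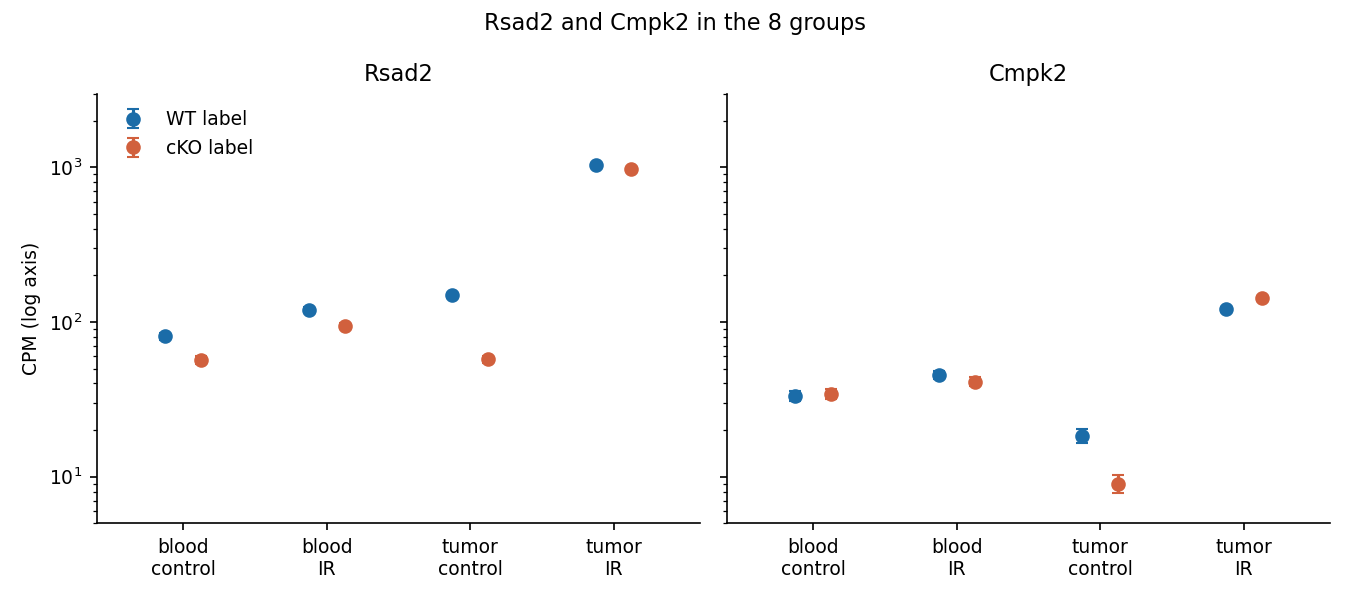
CPM of Rsad2 (left) and Cmpk2 (right) on a log axis in the 4 libraries, with WT-labelled cells in blue and cKO-labelled cells in orange; bars are 95% Poisson intervals and cover counting error only. The tumor IR points, 1036.0 and 980.5 CPM for Rsad2 and 120.5 and 142.0 CPM for Cmpk2, stand above all other groups, and Cmpk2 is lowest in tumor control.

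IR against control in tumor moved both genes past the size rule, a log2 ratio of CPM above 1 in size among genes with at least 100 UMIs. In the WT-labelled cells the log2 ratio was 2.80 for Rsad2 (2.74 to 2.85) and 2.72 for Cmpk2 (2.57 to 2.89), which placed them at ranks 26 and 31 among 10158 genes. Of all these genes 2.61% were higher and 3.13% lower by the rule. For the cKO label the log2 ratios were 4.10 (4.02 to 4.18) and 3.98 (3.79 to 4.19), at ranks 7 and 9 among 10684 genes, of which 5.19% were higher and 16.7% lower by the rule. The median log2 ratio of all genes was -0.13 and -0.18 in these comparisons. The difference between the genes was within counting error for either label, 0.08 (-0.09 to 0.24) and 0.12 (-0.10 to 0.33). The difference between the labels was not: it was 1.30 for Rsad2 (1.21 to 1.40) and 1.26 for Cmpk2 (1.01 to 1.51), while the cKO-labelled control cells were lower for both genes. Without the barcodes that carried hashtags in several libraries, the log2 ratios of the cKO label were 4.39 and 4.19, and those of the WT label 2.83 and 2.74. Treatment and library cannot be told apart, and in summed counts neither can a different mix of cells and a different amount of RNA per cell.

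The same cells could be read in the other tumor matrix. For kept cells with hashtags in a single library, Rsad2 in the tumor IR cells was at 1038.3 CPM (WT) and 987.6 CPM (cKO) in their own matrix and at 1031.6 and 995.6 CPM in the tumor control matrix. In the tumor control cells it was at 146.1 and 47.2 CPM in their own matrix and at 144.4 and 44.2 CPM in the tumor IR matrix. The levels thus went with the hashtags of the cells, whichever matrix was read. Both readings were of the same barcodes, so their likeness is not independent support for the difference with IR. The second reading also showed how often a UMI was found again in the same cell. Transcripts missed in both readings were not measured. Of 1612 WT-labelled tumor IR cells with an Rsad2 UMI in their own matrix, 78.5% had one in the other, and of 766 with a Cmpk2 UMI, 59.0% did. Among cKO-labelled cells the shares were 78.7% of 1821 and 62.7% of 868. In tumor control they were 63.1% of 347 and 43.7% of 126 WT-labelled cells, and 54.0% of 187 and 44.3% of 70 cKO-labelled cells. The other matrix held fewer UMIs of these cells, for example 11630473 against 19736301 in the WT-labelled tumor IR cells. A cell without a UMI of either gene cannot be taken as a cell without the transcript.

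The difference with IR was far smaller in blood. The log2 ratio in the WT-labelled cells was 0.57 for Rsad2 (0.49 to 0.66) and 0.45 for Cmpk2 (0.31 to 0.59), at ranks 177 and 325 among 9773 genes. Under the cKO label it was 0.74 (0.63 to 0.85) at rank 101 and 0.27 (0.11 to 0.42) at rank 1700 among 9500 genes. Neither gene passed the size rule for either label, which 0.327% of genes passed upward and 0.931% downward in the WT-labelled cells, and 0.421% upward and 0.958% downward in the cKO-labelled cells. In the cKO-labelled cells the ratio of Rsad2 exceeded that of Cmpk2 by 0.47 (0.29 to 0.66), and in the WT-labelled cells by 0.12 (-0.04 to 0.29).

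The labels were furthest apart in control tumors. There the cKO-labelled cells were below the WT-labelled cells by a log2 ratio of -1.38 for Rsad2 (-1.47 to -1.29) and -1.02 for Cmpk2 (-1.28 to -0.78), and 1.35% of 10671 genes were lower and 3.48% higher by the size rule. Without the barcodes that carried hashtags in several libraries they were -1.63 and -1.20. After IR the log2 ratio was -0.08 for Rsad2 (-0.11 to -0.05) and 0.24 for Cmpk2 (0.16 to 0.31), neither past the rule, which 0.866% of 10041 genes passed downward and 0.219% upward. In blood control Rsad2 was at -0.51 (-0.62 to -0.40) and Cmpk2 at 0.05 (-0.10 to 0.21), and in blood IR they were at -0.35 (-0.43 to -0.26) and -0.14 (-0.27 to 0.00). None of the 4 passed the rule, which 1.57% of genes passed downward and 0.674% upward in blood control, and 0.498% and 0.145% in blood IR. Rsad2 thus had the same sign in all 4 libraries, while Cmpk2 was below 0 in 2 and above 0 in the other 2, and since the libraries differ in tissue or treatment they are not replicates of 1 comparison. Ythdf2 went against the label in all 4 libraries, whereas Lyz2, where the Cre sits, was lower under the cKO label in all 4, so the direction is given as that of the hashtags. The control tumor values rested on few cells. In the WT-labelled cells 25 of 2519 cells held at least 50% of the 3015 Rsad2 UMIs, and in the cKO-labelled cells 15 of 2147 held at least 50% of 1360. Within the cell clusters described further on the comparison was uneven. For Rsad2 it ranged from -1.78 in cluster 14 (-2.27 to -1.33) to 0.61 in the dendritic cell-like cluster 12 (0.10 to 1.12). It was -1.13 in cluster 2 (-1.28 to -0.98), -0.86 in cluster 4 (-1.09 to -0.63) and -0.63 in cluster 6 (-1.06 to -0.21). In cluster 5 it was 0.43 (0.07 to 0.80), and in the macrophage-like cells -0.17 (-0.47 to 0.13). Cluster 2, where the gene was highest among tumor control clusters with at least 50 cells, held 16.9% of the WT-labelled and 9.08% of the cKO-labelled control cells.

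Tumor and blood differed in the balance of the pair. In control, Rsad2 of the WT-labelled cells was higher in tumor by a log2 ratio of 0.89 (0.80 to 0.97), whereas Cmpk2 was lower by -0.86 (-1.04 to -0.67), and the difference between them was 1.74 (1.54 to 1.94). With the cKO label the values were 0.02 (-0.10 to 0.13) and -1.93 (-2.16 to -1.71), with a difference of 1.94 (1.69 to 2.20), and -0.26 and -2.13 without the barcodes found in several libraries. Cmpk2 of the cKO-labelled cells was thus past the size rule downward, together with 16.5% of 10765 genes (27.2% were higher), while in the WT-labelled control cells neither gene passed it and 19.9% of 10395 genes were higher and 15.6% lower. After IR both genes were higher in tumor, Rsad2 by 3.11 (3.05 to 3.17) and Cmpk2 by 1.41 (1.31 to 1.52) in the WT-labelled cells, where 15.9% of 10148 genes were higher and 16.5% lower by the rule. The cKO-labelled cells gave 3.38 (3.31 to 3.45) and 1.79 (1.67 to 1.90), where 16.0% of 10094 genes were higher and 16.4% lower. Tissue and library cannot be told apart.

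The same balance was seen as the number of Rsad2 UMIs for each Cmpk2 UMI. Tags at the 3′ end do not scale with transcript length, but genes can differ in capture, so the ratio was compared between groups and not read as a difference in level between the genes. It was 2.44 (2.24 to 2.67) and 1.65 (1.5 to 1.82) in WT-labelled and cKO-labelled cells of blood control, 2.66 (2.47 to 2.86) and 2.29 (2.11 to 2.50) in blood IR, 8.17 (7.33 to 9.13) and 6.38 (5.52 to 7.41) in tumor control, and 8.60 (8.25 to 8.97) and 6.90 (6.66 to 7.15) in tumor IR. All 4 tumor groups lay above all 4 blood groups. In tumor the ratio changed little with IR, although both genes changed severalfold.

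Detection per cell was compared after each cell was thinned to 1000 UMIs. A UMI of Rsad2 was found in 33.1% of the WT-labelled and 30.6% of the cKO-labelled tumor IR cells, against 6.68% and 3.32% in tumor control, 7.18% and 6.42% in blood control, and 12.6% and 11.01% in blood IR. A UMI of Cmpk2 was found in 9.98% and 9.45% of tumor IR cells, 1.43% and 0.81% in tumor control, 3.33% and 3.26% in blood control, and 4.51% and 3.98% in blood IR. Without thinning, the shares were 53.1% and 49.7% for Rsad2 and 25.3% and 23.8% for Cmpk2 in tumor IR, and from 9.32% to 24.4% and from 3.68% to 16.3% in the other 6 groups. NK cell-like cells (cluster 8) were taken as cells outside the myeloid lineage. They held an Rsad2 UMI in 0 of 120 WT-labelled and 0 of 54 cKO-labelled cells in tumor control, which allows a share of cells with a UMI of up to 2.50% and 5.56% (3 counts of the total), at a median depth of 2673.5 and 2661.5 UMIs. In tumor IR they held one in 10 of 52 WT-labelled cells (19.2%) and 13 of 113 cKO-labelled cells (11.5%), at a median depth of 2511.5 and 2294 UMIs, and the part of free RNA in these was not tested.

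Both transcripts were found in the same cells more often than independence gives in all 8 groups. In tumor IR, 236 of 3005 WT-labelled cells held both at 1000 UMIs, where the product of the single shares gives 99.3 cells, a ratio of 2.38 (2.09 to 2.68). In the cKO-labelled cells 283 of 3629 held both against 104.8 cells, a ratio of 2.70 (2.40 to 3.02). In blood IR the counts were 83 against 23.3 cells (ratio 3.57, 2.85 to 4.41) and 51 against 14.8 (3.46, 2.58 to 4.54), and in blood control they were 52 against 10.9 (4.76, 3.56 to 6.24) and 30 against 7.83 (3.83, 2.59 to 5.46). In tumor control there were 22 cells with both against 2.34 (9.41, 5.91 to 14.2) and 11 against 0.57 (19.5, 9.73 to 34.8), the least precise values of all. The ratio cannot exceed the inverse of the larger single share, so it can be higher where fewer cells hold a UMI. Its size is therefore not compared between groups. Rsad2 was found in most cells with Cmpk2 in tumor, 78.7% and 82.5% of them in tumor IR and 62.9% and 64.7% in tumor control, but in 34.2% and 24.6% in blood control and 45.1% and 38.1% in blood IR. Conversely, Cmpk2 was found in 12.5% to 25.5% of the cells with Rsad2 and in 0.29% to 3.18% of the cells without it.

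**Figure D2:**
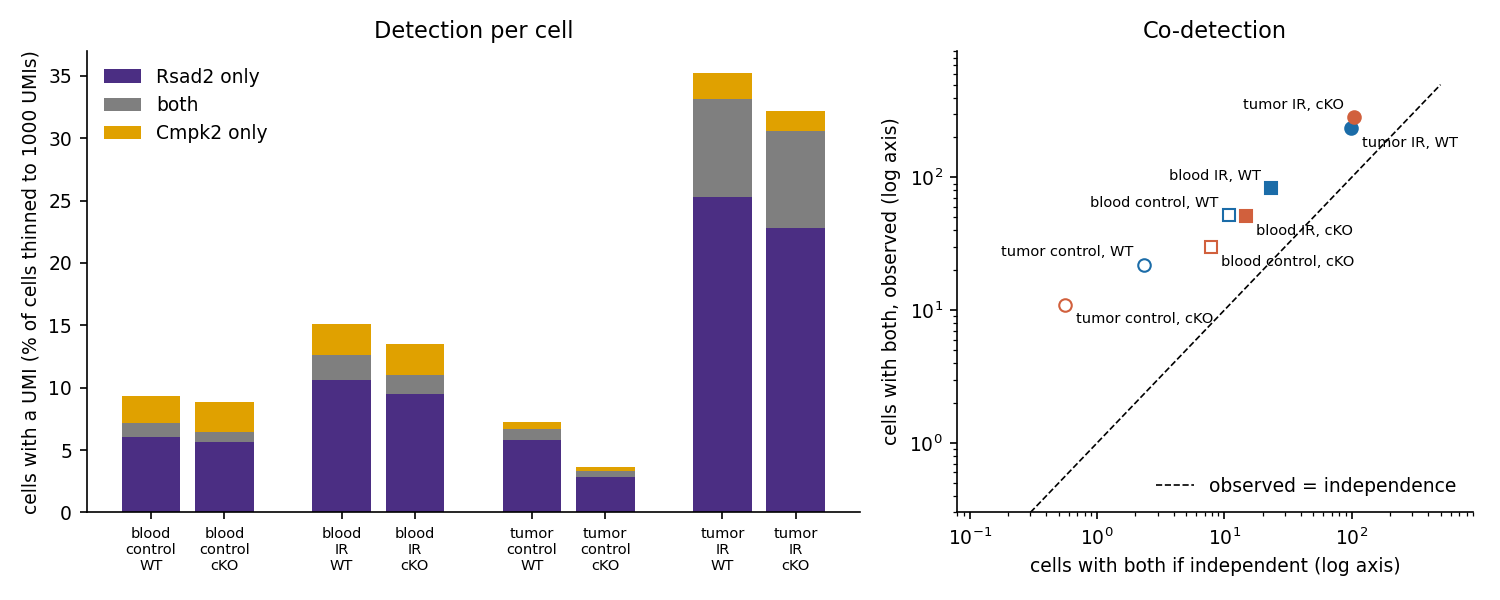
Left, percent of cells thinned to 1000 UMIs with a UMI of Rsad2 only (purple), of both genes (grey) and of Cmpk2 only (yellow) in the 8 groups. Right, the number of cells with both that independence gives (x, log axis) and the number observed (y, log axis), with blue and orange for the WT and cKO labels, circles for tumor, squares for blood, and filled symbols for IR. All 8 points lie above the dashed line of equality, from 11 observed against 0.57 in cKO-labelled tumor control to 283 against 104.8 in cKO-labelled tumor IR.

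Joint detection was also read at like levels of other interferon-induced genes. Cells of each group were split into 3 bins by their summed UMIs of other antiviral interferon-induced genes, the 33 of 35 listed that the matrices held. In the WT-labelled tumor IR cells, Rsad2 was found in 650 of 950 cells of the highest bin, 242 of 953 of the middle bin and 103 of 1102 of the lowest. Cmpk2 was found in 225, 59 and 16 of them. The ratio of observed to independent joint detection was 1.28 (1.12 to 1.45) in the highest bin, 2.34 (1.64 to 3.23) in the middle and 2.67 (0.73 to 6.83) in the lowest, against 2.38 in all cells. In the cKO-labelled tumor IR cells it was 1.49, 2.46 and 4.67, the last from 8 cells with both. In the highest bin of the WT-labelled cells of blood control it was 3.18, from 42 cells with both. The bins are not compared by the size of this ratio, since the single shares that bound it differ between them. Single clusters also held an excess: 130 of 1074 cells of cluster 2 held both in WT-labelled tumor IR against 68.8 cells, a ratio of 1.89, and 43 of 1552 cells of cluster 0 in WT-labelled blood IR against 13.4, a ratio of 3.21.

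The members were then followed through 22 clusters, made without Rsad2, Cmpk2, the interferon lists, Lyz1, Lyz2 and Ythdf2. In irradiated tumors Rsad2 was highest in cluster 10, a neutrophil-like cluster of tumor cells (Cxcr2, G0s2 and Il1r2 raised, Ccl3 leading) with a median of 1934 UMIs in the WT-labelled and 1856.5 in the cKO-labelled cells. It was at 4353 CPM (4194 to 4516) in 323 WT-labelled cells and 5056 CPM (4855 to 5265) in 244 cKO-labelled cells, and was found in 68.7% and 73.4% of them without thinning. Cmpk2 was at 239.3 (203.1 to 280.1) and 226.9 CPM (185.8 to 274.5) there, close to its level in cluster 2. This gave 18.2 (15.5 to 21.5) and 22.3 (18.3 to 27.3) Rsad2 UMIs for each Cmpk2 UMI, the highest of the tumor IR clusters with at least 50 cells for either label. The intervals met that of the 58 WT-labelled macrophage-like cells (16.0, 8.48 to 34.0) and of the WT-labelled dendritic cell-like cluster 12 (11.9, 8.55 to 16.9), and those of the cKO-labelled clusters 8 and 16, which had 3 and 4 Cmpk2 UMIs. In the barcodes of 1 to 99 UMIs of the same matrix the ratio was between 6.57 and 8.01. Only 42 cells of cluster 10 came from tumor control.

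Most of the transcripts, however, came from cluster 2, a large unnamed cluster of tumor cells with raised Ly6c2, led by Cxcl3, Nos2 and Inhba and, although it was not used to form the clusters, by Rsad2. It held 62.3% and 67.8% of the Rsad2 UMIs and 65.7% and 72.5% of the Cmpk2 UMIs of WT-labelled and cKO-labelled tumor IR cells, and 63.4% and 33.8% of the Rsad2 UMIs in tumor control. In this cluster Rsad2 was at 1794 and 1762 CPM after IR, against 707.6 and 323.1 CPM in control. Cluster 5, led by Cxcl10, Socs1 and Gbp5, was at 771.3 and 582.2 CPM after IR against 66.1 and 89.4 in control. Cluster 4, led by Cdh1 and MHC class II genes with raised C1qa to C1qc, was at 260.9 and 300.4 CPM against 64.9 and 35.8, and the macrophage-like cluster 9 at 481.3 and 588.9 against 89.5 and 79.4. Fibroblast-like cells, which the CD45 gate should not hold, were low, at 3.90 and 3.6 CPM in control, and at 34.4 CPM in 80 WT-labelled cells after IR.

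Both genes were higher after IR in each tumor cluster compared (at least 50 cells in both libraries), although 1 interval, that of Cmpk2 in the WT-labelled macrophage-like cells, included 0. The log2 ratio of Rsad2 ranged from 1.34 in cluster 2 (1.27 to 1.41) to 3.54 in cluster 5 (3.31 to 3.78) in the WT-labelled cells. The NK cell-like cells are left out of these ranges, since control was at 0, and Cmpk2, with 3 UMIs after IR for either label, was not compared there. In the cKO-labelled cells it ranged from 1.90 in the dendritic cell-like cluster 12 (1.52 to 2.33) to 3.06 in cluster 4 (2.88 to 3.27). For Cmpk2 it ranged from 0.66 in the WT-labelled macrophage-like cells, where only 10 and 30 UMIs were counted (-0.51 to 1.76), to 3.36 in the cKO-labelled macrophage-like cells (2.77 to 4.17). The ratio over all cells, 4.10 for Rsad2 in the cKO-labelled cells, was above the ratio within each of these clusters apart from the NK cell-like cells. Cluster 2 made up 36.2% of these cells after IR and 9.08% in control.

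**Figure D3:**
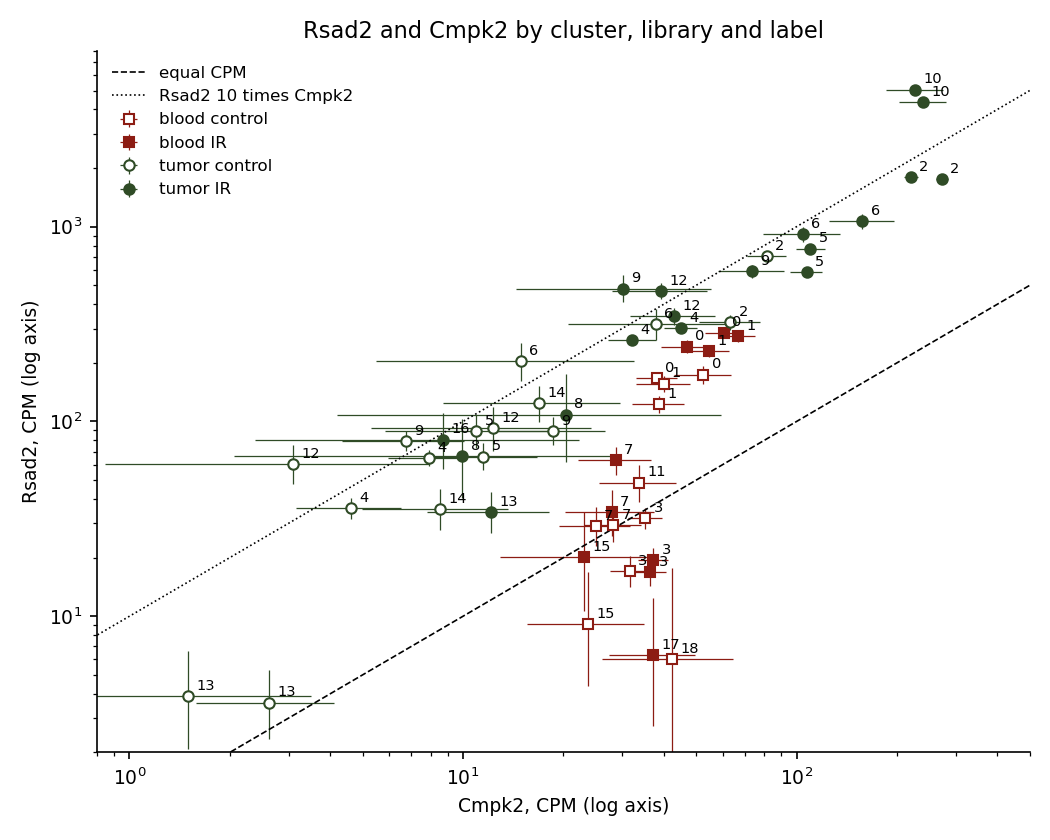
Rsad2 (y) against Cmpk2 (x) in CPM on log axes for each cluster, library and label with at least 50 cells and 3 UMIs of each gene; numbers name clusters, squares are blood, circles are tumor, filled symbols are IR, and bars are 95% Poisson intervals. All tumor points lie above the dashed line of equal CPM. Cluster 10, at up to 5056 CPM of Rsad2, lies above the dotted line of a 10-fold ratio, as do some points of tumor clusters 6, 9 and 12. The blood monocyte-like clusters 3 and 17, the neutrophil-like cluster 18 and the dendritic cell-like cluster 15 lie below the dashed line.

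In blood the balance of the pair differed between clusters, also among the neutrophil-like ones. In the neutrophil-like clusters 0 and 1, Rsad2 was at 122.9 to 173.8 CPM in control and at 229.7 to 285.8 CPM after IR, with Cmpk2 at 38.1 to 52.6 and 46.9 to 66.8 CPM. In the monocyte-like cluster 3 (Ly6c2, Ccr2, Vcan, F13a1 and Chil3 raised) Rsad2 was at 31.9 CPM (28.1 to 36.1) and 17.0 CPM (14.1 to 20.4) in WT-labelled and cKO-labelled control cells and at 19.4 (16.7 to 22.4) and 16.9 (14.3 to 19.9) after IR. Cmpk2 was at 35.2 and 31.6 CPM in control and 37.1 and 36.5 after IR, a smaller gap to clusters 0 and 1 than that of Rsad2. These levels of Rsad2 were below those in the barcodes of 1 to 99 UMIs of blood, 64.9 and 89.9 CPM. In those barcodes Cmpk2 was at 30.7 CPM in control and 44.4 CPM after IR, the latter above its level in cluster 3. The part of free RNA in the counts of either gene was not tested. There were 0.91 (0.76 to 1.08) Rsad2 UMIs for each Cmpk2 UMI in the WT-labelled control monocyte-like cells and 0.54 (0.43 to 0.68) in the cKO-labelled ones, against 4.38 (3.75 to 5.14) and 3.30 (2.65 to 4.15) in cluster 0. After IR the ratios were 0.52 (0.44 to 0.63) and 0.46 (0.38 to 0.57) against 4.72 (4.12 to 5.43) and 5.16 (4.26 to 6.28). The second monocyte-like cluster, 17, had 0.17 (0.07 to 0.36) in 88 cKO-labelled cells after IR, and the small neutrophil-like cluster 18 had 0.14 (0.03 to 0.48) in 62 cKO-labelled control cells, unlike clusters 0 and 1. The dendritic cell-like cluster 15 had 0.38 (0.17 to 0.82) in 103 WT-labelled control cells and 0.87 (0.38 to 1.95) in 50 after IR. Neutrophil-like cells were 3106 of 4622 WT-labelled and 2500 of 3771 cKO-labelled cells of blood control, although the gate was set on Ly6Chi.

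In blood Rsad2 was higher after IR in the neutrophil-like clusters 0 and 1 for both labels, and in the WT-labelled nonclassical monocyte-like cells. In clusters 0 and 1 the log2 ratio of Rsad2 was 0.77 (0.65 to 0.90) and 0.80 (0.65 to 0.97) in the WT-labelled cells and 0.48 (0.29 to 0.67) and 0.90 (0.73 to 1.08) in the cKO-labelled cells. For Cmpk2 it was 0.66 (0.39 to 0.94) and 0.74 (0.43 to 1.07), then -0.16 (-0.55 to 0.22) and 0.49 (0.17 to 0.83). In the monocyte-like cluster 3 Rsad2 was lower after IR in the WT-labelled cells, by a log2 ratio of -0.71 (-0.998 to -0.44) from 251 UMIs in control and 187 after IR. In the cKO-labelled cells of cluster 3 the log2 ratio of Rsad2 was -0.01 (-0.37 to 0.35). Cmpk2 was at 0.08 (-0.15 to 0.31) and 0.21 (-0.05 to 0.46) there. In nonclassical monocyte-like cells Rsad2 was at 1.11 (0.71 to 1.53) in the WT-labelled and 0.23 (-0.27 to 0.71) in the cKO-labelled cells. The WT-labelled dendritic cell-like cluster 15 was at 1.04 (-0.17 to 2.48), from 13 Rsad2 UMIs after IR and 10 in control.

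**Figure D4:**
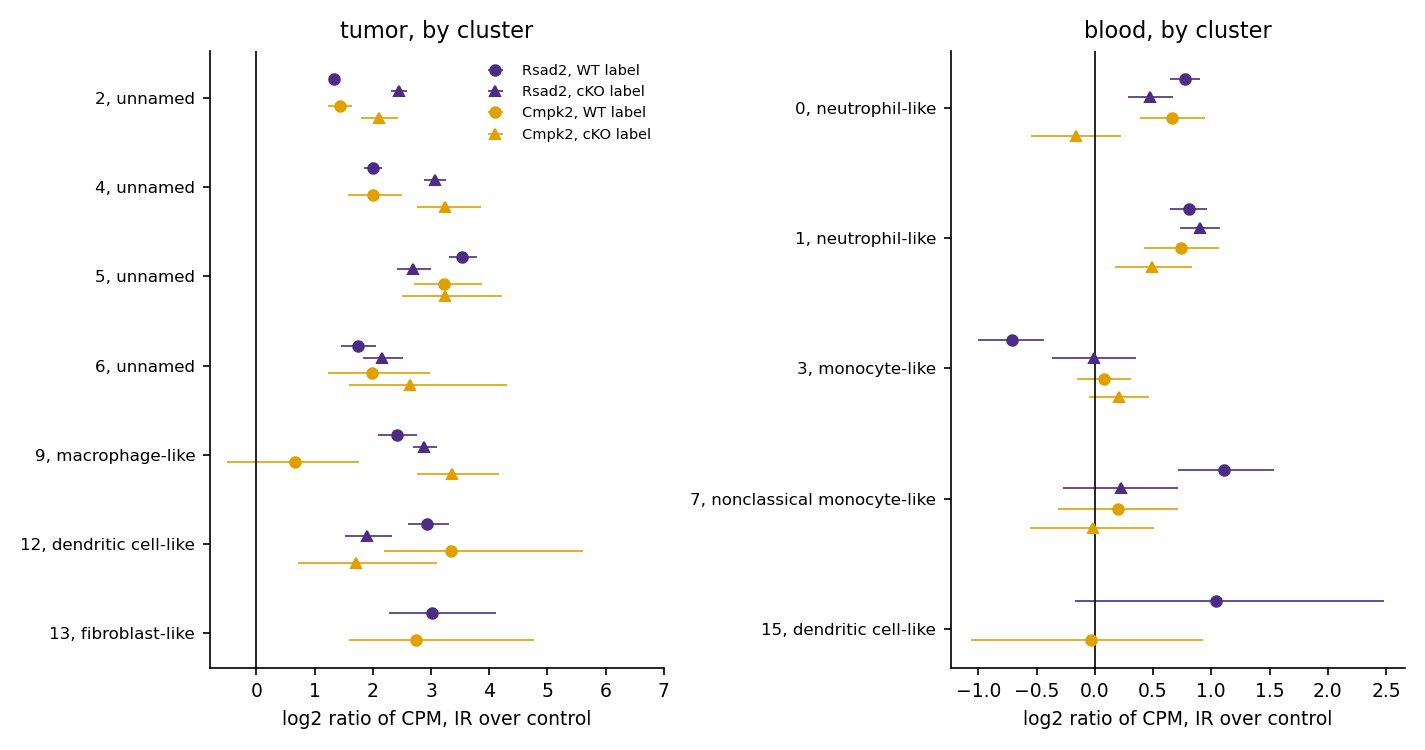
Log2 ratio of CPM, IR over control, for Rsad2 (purple) and Cmpk2 (yellow) in WT-labelled (circles) and cKO-labelled cells (triangles), by tumor cluster (left) and blood cluster (right); bars are 95% intervals of counting error and the vertical line marks no difference. The NK cell-like cells of tumor, at 0 UMIs in control, are not drawn. Every tumor point drawn is above 0, from 0.66 to 3.54, whereas Rsad2 of the WT-labelled blood monocyte-like cells is at -0.71.

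Genes whose detection went most with each member were sought over the 8 groups, by the mean phi coefficient between detection of the 2 genes in cells thinned to 1000 UMIs. For Rsad2 these were Ifit1 (mean 0.32, range 0.18 to 0.44), Ifit3 (0.31), Isg15 (0.28), Oasl1, Rtp4, Slfn5, Oasl2, Ifi204, Isg20 and Irf7 (0.17), out of 5067 genes detected in at least 1% of cells in every group. Over all genes the median was -0.0081 and the 99th percentile 0.092. Cmpk2 fell short of that share in cKO-labelled tumor control, where it was in 0.81% of cells, so it could not enter the order. Its coefficient with Rsad2 was 0.25 (0.14 to 0.36), between those of Isg15 and Oasl1. For Cmpk2 the first gene of 5068 was Rsad2, followed by Ifit1 (0.24), Ifit3 (0.23), Oasl1, Slfn5, Isg15, Ifi204, Irf7, Slfn8 and Ifih1 (0.10), where the median was -0.0036 and the 99th percentile 0.058. Ifit1 binds viral RNA, Isg15 is a ubiquitin-like modifier, and Ifih1 senses double-stranded RNA. Thinning evened depth, but each group mixed cell types, whose part in these coefficients was not tested, so they describe detection only.

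**Figure D5:**
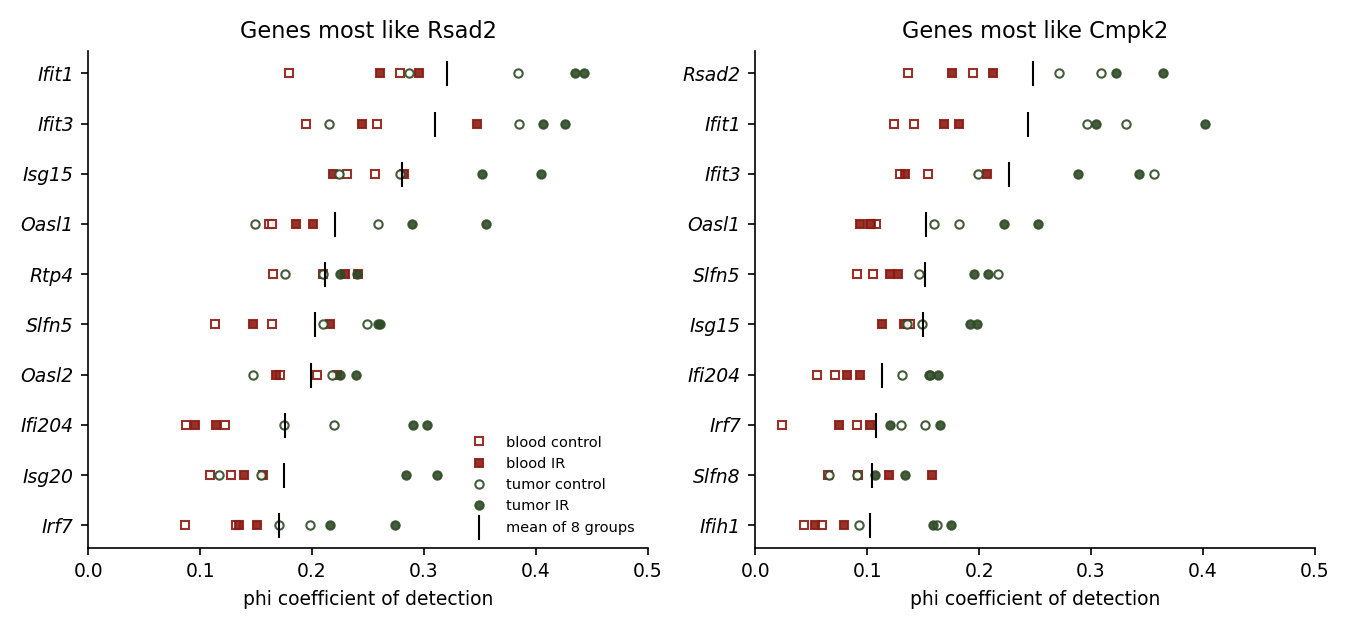
Phi coefficient of detection (x) of the 10 genes most like Rsad2 (left) and Cmpk2 (right) in each of the 8 groups, with squares for blood, circles for tumor, filled symbols for IR and black ticks for the mean over groups. Ifit1 and Ifit3 lead for Rsad2 with means of 0.32 and 0.31, and Rsad2 itself leads for Cmpk2 with 0.25.

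The genes around the members in their pathway were counted from fixed lists. Of 12 interferon ligands, only Ifng reached 100 UMIs for IR in the WT-labelled tumor cells, at 14.4 CPM in control and 9.31 after IR, a log2 ratio of -0.62 (-0.90 to -0.36). In the cKO-labelled tumor cells it went the other way, from 1.51 to 6.06 CPM (1.97, 1.47 to 2.57). Ifnb1, which encodes interferon-β, had 24 and 96 UMIs in WT-labelled and cKO-labelled tumor control, 6 and 45 in tumor IR, and at most 1 in any blood group. Of 16 interferon receptor and signalling genes, 3 were past the rule upward for IR in the WT-labelled and 7 in the cKO-labelled tumor cells, with medians of 0.40 and 0.73 and none lower by the rule, where 2.61% and 5.19% of all genes were higher. Usp18, which removes ISG15 from proteins and dampens receptor signalling, was at 2.63 (2.47 to 2.80) and 3.57 (3.37 to 3.79), the transcription factor Irf7 at 2.34 and 3.32, and Stat2, a subunit of the factor that interferon activates, at 1.60 and 2.46. The receptor gene Ifnar2 was at -0.03 and 0.52.

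Other antiviral interferon-induced genes were higher along with the pair. Of 35 listed, 32 were measured, and 30 were higher by the rule for IR in the WT-labelled and 32 in the cKO-labelled tumor cells (2.61% and 5.19% of all genes), with median log2 ratios of 1.93 and 2.83 beside -0.13 and -0.18 over all genes. The members, at 2.80 and 2.72 and at 4.10 and 3.98, were above these medians. Ifit3b (3.80 and 4.32), Ifit1bl1 (3.65 and 4.40) and Ifit3 (3.06 and 4.22) were highest in the WT-labelled cells and are near copies of other Ifit genes, so their counts are uncertain where a read could match several. Samhd1, a dNTP hydrolase, was lowest (0.53 and 1.27). In blood 1 and 2 of 31 measured genes were higher by the rule (0.327% and 0.421% of all genes), with medians of 0.43 for both labels. Between labels in tumor control 9 of 32 were lower and none higher by the rule (1.35% and 3.48% of all genes), with a median of -0.83, and in tumor IR none of 32 passed it (0.866% of all genes lower and 0.219% higher), with a median of -0.06.

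Most listed genes of pyrimidine and nucleotide metabolism did not share the pattern of Cmpk2. Of these 20 genes, not all of them kinases, 1 was higher and 3 lower by the rule for IR in the WT-labelled tumor cells. In the cKO-labelled ones 1 was higher and 9 were lower. Over all genes 2.61% were higher and 3.13% lower for the WT label, and 5.19% and 16.7% for the cKO label. Dck, the deoxycytidine kinase, was the gene that was higher (1.34, 1.21 to 1.48, and 1.51, 1.38 to 1.64). Cmpk1, the cytosolic counterpart of Cmpk2, went from 189.1 to 201.7 CPM in the WT-labelled cells, a log2 ratio of 0.09 (0.03 to 0.16). In the cKO-labelled cells it went from 158.2 to 201.3 CPM. The dCMP deaminase Dctd (-1.84 and -2.32), Rrm2 (-1.08 and -2.93) and Tk1 (-1.01 and -2.94) were lower. Rrm2 and Tk1 are genes of dividing cells. Of 9 measured genes of cytosolic iron-sulfur assembly, the pathway that loads the cluster of viperin, none passed the rule for either label, with medians of 0.01 and -0.17. Of 6 genes for reported protein partners of viperin, 1 passed it downward for both labels, Fdps (-1.02 and -1.82), an enzyme of isoprenoid synthesis, whereas Traf6 was at 0.42 and 0.51.

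The neighboring genes were few and mostly uncounted. Within 500 kb the matrices held 10 genes, and 8 besides the members. Of these only Rnf144a, a ubiquitin ligase gene on the reverse strand, was well counted, with 9455 UMIs, and the other 7 had 5 or fewer. Rnf144a was counted mostly in blood, at 121.5 and 93.9 CPM in WT-labelled and cKO-labelled blood control and 123.6 and 113.6 in blood IR, against 2.45 and 2.02 CPM in tumor IR and 1.43 and 0.93 in tumor control. Its 29 and 50 UMIs in WT-labelled tumor control and tumor IR were under the minimum of 100.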

How the data were processed

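The authors aligned 10x 3′ v3.1 reads to mm10 (GENCODE vM23) with Cell Ranger (6.0.1 in the methods, version 4 in the matrix headers) and deposited unnormalized UMI counts of 32285 genes and 2 hashtags for all barcodes; Seurat 4.0.6 was named for their analysis. Each matrix was read as 1 library. Gene UMIs per matrix were 87703837 (tumor control), 81601307 (tumor IR), 51731085 (blood control) and 51653956 (blood IR); 0 columns were left unused.

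Cells were called here by an order-of-magnitude threshold plus a test of barcodes with at least 500 UMIs against free RNA (10000 simulations, level 0.01), with at least 200 genes and at most 25% mitochondrial UMIs. Labels needed 20 hashtag UMIs: WT if B0301 was at least B0302, cKO if B0302 was at least 4 times B0301. Barcodes between were left out. Scrublet (scanpy 1.11.5) marked at most 3 barcodes by its own threshold, so it had not worked, and the top 6% of scores per library were removed. Seurat 5.3.0 clustered the cells (1977 of 2000 variable genes, 40 components), and clusters were named "X-like" with at least 3 raised markers. Names may differ from those of the study.

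UMIs were summed per group and given as CPM, and log2 ratios had 1 UMI added, scaled to depth. No p-value was computed, since each group is 1 pool. Poisson, conditional binomial and Clopper-Pearson intervals cover counting error only. Named genes were the members, the 10 most like each, genes within 500 kb, Ythdf2, Lyz1 and Lyz2, and the 3 highest and lowest per list for IR in WT-labelled tumor cells, of which only some are printed. The members, lists and rules were chosen with earlier results of these data known. The size rule and its intervals were tried on simulated counts, drawn as Poisson counts around a summed profile. Those counts lack the concentration of UMIs in few cells, so the intervals were not tested for it.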

Additional observations from a re-analysis of the deposited data

Results flagged for a closer look

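Rsad2 was at 1028.7 CPM and Cmpk2 at 128.6 CPM in the called barcodes of the tumor control matrix with under 20 hashtag UMIs. These entered no comparison apart from the reading of tumor IR cells in the other matrix. Their level of Rsad2 and of Cmpk2 is set here beside that of the other called barcodes. Both values were above the 104.9 and 14.2 CPM of the called barcodes of the same matrix with at least 20 hashtag UMIs. The 4799 called barcodes of the tumor IR matrix with under 20 hashtag UMIs were at 86.9 CPM for Rsad2 and 12.8 CPM for Cmpk2, against 1009.5 and 130.0 CPM in the rest. Nearly all of these barcodes carried hashtags in the respective other tumor matrix.

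Cmpk2 of cKO-labelled against WT-labelled cells had a log2 ratio of -1.02 in tumor control and 0.24 in tumor IR, opposite signs under the same comparison. Rsad2 of the WT-labelled monocyte-like cells (cluster 3) in blood was lower after IR, with a log2 ratio of -0.71, while it was higher in the neutrophil-like clusters. Neither difference was tested over samples, since each group was 1 pool.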

How the results depend on the processing

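Of 192 alternative values of the 24 log2 ratios of the pair, 189 kept the sign of the value reported, and 155 stayed within its interval. The cause of the others was not tested. The alternative values include the reading of the same cells in the other tumor matrix, which is not independent of the main one. Under the macrophage-like cells alone, IR against control in tumor was 2.41 (Rsad2) and 0.66 (Cmpk2) for the WT label and 2.88 and 3.36 for the cKO label, cKO against WT was -0.17 and -1.41 in tumor control and 1.25 for Cmpk2 in tumor IR, and Rsad2 in tumor IR reversed to 0.29. Under the neutrophil-like cells alone, IR against control in blood was 0.77 and 0.70 for the WT label and 1.05 for Rsad2 under the cKO label, and cKO against WT in blood IR was -0.24 and -0.29.

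For Rsad2, IR against control in WT-labelled tumor cells was 2.73 with HTODemux labels, 2.64 with a symmetric hashtag margin (2.49 for Cmpk2), 2.91 without removal by Scrublet score and 2.95 with TMM factors (edgeR). In cKO-labelled tumor cells it was 4.39 without barcodes with hashtags in several libraries, 4.30 with TMM factors and 4.49 in the other tumor matrix, a reading added after the data were seen. Rsad2 of cKO against WT in tumor control was -1.55 with the symmetric margin, -1.26 without removal by Scrublet score, -1.63 without the several-library barcodes and -1.70 in the other matrix, and in tumor IR it was -0.0514 with every barcode of at least 500 UMIs and -0.0513 in the other matrix. Tumor against blood in WT-labelled control cells was 1.07 with the symmetric margin (-0.64 for Cmpk2), 0.79 without removal by Scrublet score and 0.79 with TMM factors. For the cKO label it turned from 0.02 to -0.26 without the several-library barcodes and to -0.14 with TMM factors. After IR it was 3.04 with every barcode of at least 500 UMIs, 3.04 with the order-of-magnitude threshold alone and 3.19 with TMM factors for the WT label, and 3.49 with TMM factors for the cKO label.

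The ratio of observed to independent joint detection depended on depth, with which the single shares that bound it also rise. Without thinning it was 1.92 and 1.74 in blood IR (WT and cKO), 2.56 and 2.46 in blood control, 1.69 and 1.77 in tumor IR, and 4.51 and 6.66 in tumor control. Thinned to 2000 UMIs it was 2.59 in WT-labelled blood IR and 2.33 in cKO-labelled tumor IR. With at least 2 UMIs of each gene it was 11.1 in WT-labelled blood IR, and 4.56 and 4.86 in tumor IR.

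No paired analysis was possible because each group was 1 pool of mice and the groups share no replicate numbers, and no sample was left out in turn for the same reason. The labels share each library, but the 4 libraries differ in tissue or treatment, and no test was run over them. Intervals cover counting error only, and differences between mice were not measured. Sequencing depth limits what a cell without a UMI shows, and free RNA what a cell with a UMI shows.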
